A study of Mus musculus with 16 samples.

Results

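In livers that had regenerated after partial hepatectomy, transcripts of nearly all genes of the mitosis and cytokinesis set stood far above their level in the tissue that had been cut away. The set held 47 genes, found as the rows of the count table whose gene symbol was on a list of mitosis and cytokinesis genes, of 55421 genes in all. All 47 were found and all 47 passed the filter on low counts. In control livers 45 of 47 rose and none fell, with a median log2 fold change of 4.58 over the 47, equal to 23.9-fold. In HIRA KO livers 43 of 47 rose and none fell, with a median of 2.98, equal to 7.88-fold. The HIRA KO count was less stable. It ran from 10 to 44 with 1 library left out, against 43 to 45 in control livers. Of all 23018 genes tested, 6.04% rose and 4.17% fell in control livers, and 6.48% rose and 5.53% fell in HIRA KO livers. No member passed the test between HIRA KO and control livers at either time in the fit of all 16 libraries. The libraries numbered 1 and 2 stood apart from those numbered 3 and 4 in each group, and the median change of the members with regeneration was smaller within them.

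Cells enter mitosis when cyclin B bound to Cdk1 becomes active. Condensin and topoisomerase II then compact and untangle the chromosomes, and the spindle attaches to them at the kinetochores. The spindle checkpoint holds the anaphase promoting complex, an E3 ubiquitin ligase, inactive until each chromosome is attached. The ligase then has cyclin B and securin destroyed, and a ring of actin and myosin under the control of centralspindlin and Ect2 cuts the cell apart. Adult hepatocytes are mostly out of the cell cycle, but enter it after part of the liver is lost, and many of them duplicate their DNA without completing cytokinesis, which gives cells with several genomes. Many genes of this kind are transcribed late in the cell cycle through a short promoter sequence, the cell cycle homology region (CHR), bound by the DREAM complex in resting cells and by B-Myb-MuvB and FoxM1 in dividing ones.

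Bulk poly-A RNA-seq was analysed in 16 liver libraries from male C57BL/6 mice, in 4 groups of 4, from control and from HIRA KO mice at each of the times, before and after regeneration. HIRA, a chaperone of histone H3.3, was removed by virus in hepatocytes through the Tbg promoter. Control mice were wildtype with AAV8 Tbg-Cre or with AAV8-Tbg-saCAS9/U6-sgRNA-Rosa26. HIRA KO mice were HIRA fl/fl with AAV8 Tbg-Cre or wildtype with AAV8-Tbg-saCAS9/U6-sgRNA-HIRA. Each group held both kinds in equal numbers. All mice, controls included, therefore carried a virus and a nuclease or recombinase. The virus was injected at 6 months, surgery 4 weeks later removed 70% of the liver, and the regenerated organ was collected 5 days after surgery. The resected lobes gave the samples before regeneration, so that time, lobe and surgery changed together and cannot be told apart. The headers of the count table give genotype, time and a number from 1 to 4 that no label ties to a mouse or to a kind of deletion. A library number is here only a name, and the p-values measure the spread between these libraries. Resected and regenerated tissue may come from the same mice, but the fit takes all libraries as independent.

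Libraries 1 and 2 nevertheless differed from libraries 3 and 4 in all 4 groups. Cps1, the first enzyme of the urea cycle, had 4180 and 4449 against 3157 and 3150 CPM (counts scaled by TMM to a common library size and given per 1000000) in control and 6190 and 6719 against 2553 and 3310 CPM in HIRA KO libraries before regeneration, and 2765 and 3277 against 1767 and 1450 CPM in control and 6454 and 5282 against 2045 and 2406 CPM in HIRA KO libraries after it. In a principal component analysis of 10101 genes, with the group means taken out, component 1 held 42.1% of the variance and put all 8 libraries numbered 1 or 2 on one side and all 8 numbered 3 or 4 on the other. What separates the pairs is given by no label used here, and the main fit holds no term for it. The kind of deletion also splits each group evenly, but no label ties a column to a kind. Whether the pairs follow it was not tested. The members' results are therefore given also within each pair, a choice made after seeing the data.

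Library totals ran from 15103059 to 21738619 counts. Hira itself was lower in the HIRA KO libraries without overlap, at 3.13 to 4.38 against 5.21 to 6.18 CPM before and 3.03 to 4.56 against 4.99 to 6.29 CPM after regeneration, although its adjusted p in the fit across all genes was 0.129 before and 0.0666 after. All 12 hepatocyte markers were counted in each library. In whole liver, a change in the number of dividing cells and a change in RNA per cell cannot be told apart, nor can hepatocytes be told from other dividing cells. The 12 Kupffer cell and macrophage markers had a summed level of 227 to 601 CPM in the 8 libraries before and 949 to 1426 CPM in the 8 after regeneration, and their part in the results was not tested. Markers that fell to 0 in at least 1 library included Timp1 of the stellate cell markers, Sctr and Cftr of the cholangiocyte markers, Cr2 of the B cell markers, Cd3d and Ncr1 of the T and NK cell markers and Mpo, Elane, Camp, Ngp and Ltf of the neutrophil markers.

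The promoters are given first because the members moved together. RefSeq promoter windows (GRCm38.p6, 250 bases before to 50 bases after the start, first listed start of a gene) were at hand for 39 of the 47 members and for 27025 genes in all. A CHR (TTTGAA or TTCGAA, on either strand) stood in 31 of the 39 windows, 79.5%, against 19.4% of all windows. A CCAAT box (CCAAT on either strand) stood in 29, 74.4%, against 37.9% of all windows. Both together were found in 27, 69.2%, against 7.70% of all windows, and an E2F form (TTCGCGC, TTTCGCGC, TTTGGCGC or TTTCCCGC, the first of which lies within the second) in 4, 10.3%, against 3.14%. These are matches of letters and not binding sites.

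Shown here are the 120 bases before the start of 6 members of 4 roles that rose and hold both motifs in the 300-base window, and of Mad2l1, which rose and whose window holds neither. Only members whose stretch touches no annotated exon were taken. Capitals mark the CHR and CCAAT letters on either strand (TTCAAA and ATTGG on the other strand), each sequence is written 5′ to 3′ along its gene, and the sequences lie at chr9:70421555-70421674 for Ccnb2 (reverse strand), chr7:135716380-135716499 for Mki67 (reverse strand), chr11:99024190-99024309 for Top2a (reverse strand), chr19:37376262-37376381 for Kif11 (forward strand), chr11:40733438-40733557 for Hmmr (reverse strand), chr3:27153879-27153998 for Ect2 (reverse strand) and chr6:66535101-66535220 for Mad2l1 (forward strand).
Ccnb2: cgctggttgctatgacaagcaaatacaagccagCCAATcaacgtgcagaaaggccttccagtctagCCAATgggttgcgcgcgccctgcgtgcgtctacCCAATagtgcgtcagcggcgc
Mki67: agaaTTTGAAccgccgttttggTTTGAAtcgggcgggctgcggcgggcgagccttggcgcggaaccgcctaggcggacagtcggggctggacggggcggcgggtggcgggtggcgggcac
Top2a: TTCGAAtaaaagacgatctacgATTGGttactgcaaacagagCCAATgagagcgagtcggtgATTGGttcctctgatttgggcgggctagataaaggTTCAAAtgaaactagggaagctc
Kif11: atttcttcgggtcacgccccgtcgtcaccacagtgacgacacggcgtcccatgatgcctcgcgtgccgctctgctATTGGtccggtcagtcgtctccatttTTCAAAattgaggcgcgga
Hmmr: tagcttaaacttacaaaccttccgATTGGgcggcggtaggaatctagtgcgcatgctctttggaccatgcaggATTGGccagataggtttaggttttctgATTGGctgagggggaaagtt
Ect2: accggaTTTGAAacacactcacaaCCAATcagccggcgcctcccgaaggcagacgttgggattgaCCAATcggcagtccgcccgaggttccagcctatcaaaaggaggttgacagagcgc
Mad2l1: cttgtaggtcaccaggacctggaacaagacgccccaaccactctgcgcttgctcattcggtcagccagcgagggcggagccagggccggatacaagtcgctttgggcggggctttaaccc
In Kif11 an ATTGG lies 45 bases and a TTCAAA 19 bases before the start. In Ccnb2 and Hmmr the stretch holds CCAAT boxes alone, and the CHR nearest to the start lies 4 and 8 bases after it. In Ccnb2 3 boxes are spread over the stretch, 87, 54 and 21 bases before the start.

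Among the cyclins and mitotic kinases 7 of 8 rose in control livers, with a median log2 fold change of 4.91 over the 8. Ccnb1, the mitotic cyclin B1, had 0.0995, 0.108, 0.973 and 0.237 CPM in the 4 control libraries before and 2.07, 16.0, 39.9 and 28.5 CPM after regeneration. In HIRA KO livers Ccnb1 had 1.80, 0.934, 0.340 and 0.125 CPM before and 3.53, 2.13, 42.3 and 8.01 CPM after. The groups did not overlap by time in either genotype, and single libraries after regeneration spanned a range of 19.3-fold in control. Ccnb1 rose by a log2 fold change of 5.94 ± 1.33 (SE, n = 4 against 4) in control livers (edgeR's quasi-likelihood test, Benjamini-Hochberg adjusted p = 0.0138) and of 4.07 ± 1.19 in HIRA KO livers (adjusted p = 0.0443). Cdk1, the kinase that cyclin B activates, rose 28.4-fold in control and 11.7-fold in HIRA KO livers (adjusted p = 0.00306 and 0.0108, edgeR). Ccna2, Ccnb2, Plk1, the kinase of many mitotic steps, Melk and Pbk also rose in both genotypes.

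Ccnf, the F-box protein cyclin F that marks proteins for destruction in G2, was the member that stood apart. It had 35.3, 27.1, 39.4 and 30.1 CPM in control libraries before and 16.5, 23.0, 37.6 and 28.3 CPM after regeneration. In HIRA KO libraries it had 14.0, 16.1, 29.5 and 31.1 CPM before and 11.0, 8.57, 29.3 and 18.5 CPM after. The groups overlapped in each comparison by time, and the log2 fold change was -0.32 ± 0.375 in control (adjusted p = 0.680, edgeR) and -0.43 ± 0.379 in HIRA KO livers (adjusted p = 0.520). Its window holds TTTGAA and CCAAT as the windows of most members do, with a TTTGAA 14 bases before the start.

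Chromosome structure genes rose in 8 of 8 cases in control and in 7 of 8 in HIRA KO livers. Mki67, which coats mitotic chromosomes and is the usual marker of cycling cells, had 0.796, 1.29, 2.23 and 1.01 CPM in control libraries before and 11.8, 37.8, 71.0 and 77.5 CPM after regeneration. Its HIRA KO values were 6.14, 4.47, 1.56 and 1.82 CPM before and 24.4, 10.5, 72.2 and 27.0 CPM after. Within a genotype the times did not overlap. The change was 5.22 ± 0.807 on the log2 scale in control (adjusted p = 0.00190, edgeR) and 3.24 ± 0.720 in HIRA KO livers (adjusted p = 0.0127).

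Top2a, topoisomerase II alpha, had 1.09, 1.29, 2.52 and 0.829 CPM in control libraries before and 8.83, 20.3, 59.5 and 42.6 CPM after, and in HIRA KO libraries 5.40, 3.60, 1.36 and 1.06 CPM before and 14.0, 10.4, 40.9 and 14.8 CPM after. Libraries did not overlap by time within a genotype. Top2a rose 22.9-fold in control (adjusted p = 0.00289, edgeR) and 6.90-fold in HIRA KO livers (adjusted p = 0.0213). Of the condensin subunits, which fold the chromosomes, Ncapg rose 19.6-fold in control livers (adjusted p = 0.00777, edgeR) and 11.5-fold in HIRA KO livers (adjusted p = 0.0196), the largest change of the role there. Smc4 rose 4.40-fold in control livers (adjusted p = 0.00478, edgeR) and was 2.35-fold higher without passing the test in HIRA KO livers (adjusted p = 0.0574). Ncapd2 in HIRA KO livers had the smallest change that passed the test there, 2.62-fold.

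All 4 genes of the chromosomal passenger complex, which corrects faulty attachments through Aurora B, rose in both genotypes. Incenp, its scaffold, had 1.94, 1.67, 3.15 and 1.36 CPM in control libraries before and 6.95, 13.2, 25.0 and 22.9 CPM after regeneration. HIRA KO livers gave 3.17, 2.53, 1.63 and 2.57 CPM before and 9.15, 7.59, 21.7 and 8.07 CPM after. The 2 times did not overlap in either genotype, and Incenp rose 8.38-fold in control (adjusted p = 0.00117, edgeR) and 4.66-fold in HIRA KO livers (adjusted p = 0.00602). Aurkb, Birc5 (survivin) and Cdca8 (borealin) are the other subunits.

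Of the 6 kinetochore genes 5 rose in each genotype, and Spc24, a subunit of the Ndc80 complex that holds microtubules, did not pass the test. Spc24 had 12.5, 10.9, 13.9 and 14.9 CPM in control libraries before and 7.83, 12.0, 21.5 and 19.6 CPM after regeneration. In HIRA KO libraries it had 9.58, 7.67, 10.9 and 13.7 CPM before and 8.11, 12.5, 25.2 and 13.2 CPM after. The times overlapped in both genotypes, with log2 fold changes of 0.23 ± 0.336 in control (adjusted p = 0.765, edgeR) and 0.50 ± 0.338 in HIRA KO livers (adjusted p = 0.379). Spc25, its partner in the same complex, rose 4.32-fold in control (adjusted p = 0.0161, edgeR), the smallest of the 45 changes that passed the test there, and 3.41-fold in HIRA KO livers (adjusted p = 0.0354). Cenpf and Cenpe, large proteins of the outer kinetochore, are the members with the lowest level per kilobase of exon in control livers before regeneration, at 0.0152 and 0.0266 CPM per kb.

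The 4 spindle checkpoint genes Bub1, Bub1b, Ttk and Mad2l1 rose in both genotypes. Mad2l1, the protein that binds Cdc20 while chromosomes are unattached, had 2.49, 2.96, 3.43 and 3.02 CPM in control libraries before and 6.26, 13.1, 25.4 and 25.6 CPM after. HIRA KO values of Mad2l1 were 3.07, 2.67, 2.24 and 1.88 CPM before and 6.52, 5.77, 28.5 and 10.4 CPM after. The times did not overlap, and the log2 fold changes of the 2 genotypes lay close together, at 2.57 ± 0.532 in control (adjusted p = 0.00800, edgeR) and 2.37 ± 0.540 in HIRA KO livers (adjusted p = 0.0130).

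All 8 spindle assembly genes rose in control and 7 of 8 in HIRA KO livers. Tpx2, which carries Aurora A to the spindle, had 0.398, 0.753, 1.55 and 0.769 CPM in control libraries before and 4.89, 22.6, 42.0 and 37.4 CPM after regeneration. In HIRA KO libraries Tpx2 had 2.80, 2.80, 0.884 and 0.564 CPM before and 8.02, 4.80, 41.9 and 10.1 CPM after. The times did not overlap, and Tpx2 rose 31.0-fold in control (adjusted p = 0.00522, edgeR) and 9.07-fold in HIRA KO livers (adjusted p = 0.0288). Aurka, the kinase itself, rose 8.04-fold in control (adjusted p = 0.0262) and was 4.16-fold higher in HIRA KO livers without passing the test (adjusted p = 0.0982).

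Hmmr, a spindle protein, had the largest change of all members in control livers. Its levels were 0.249, 0.161, 0.744 and 0.237 CPM before and 3.26, 18.1, 43.2 and 31.7 CPM after in control libraries, and 1.48, 1.00, 0.204 and 0.313 CPM before and 3.67, 1.78, 39.9 and 7.18 CPM after in HIRA KO libraries. The lowest library after regeneration lay above the highest before it in each genotype, in HIRA KO by little. Hmmr rose 68.7-fold in control (adjusted p = 0.00832, edgeR) and 16.9-fold in HIRA KO livers (adjusted p = 0.0338).

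The 3 genes of mitotic exit rose in both genotypes, with the highest median of the 8 roles in control livers, 42.4-fold. Cdc20, which activates the anaphase promoting complex, had 0.348, 0.699, 2.00 and 0.710 CPM in control libraries before and 5.57, 42.0, 75.1 and 61.7 CPM after regeneration. In HIRA KO libraries Cdc20 had 2.43, 2.47, 0.340 and 0.626 CPM before and 6.21, 3.20, 80.5 and 18.2 CPM after. The times did not overlap, although HIRA KO library 2 after regeneration lay close to libraries 1 and 2 before it. Cdc20 rose 49.5-fold in control (adjusted p = 0.0120, edgeR) and 18.0-fold in HIRA KO livers (adjusted p = 0.0343), the largest change of a member there. Ube2c, the ubiquitin-conjugating enzyme of the same ligase, and Cdca3 also rose.

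All 6 cytokinesis genes rose in both genotypes, from Prc1, which bundles the central spindle, and the centralspindlin pair Kif23 and Racgap1 to Ect2 and Anln at the cleavage furrow. Kif20a, a kinesin of the central spindle, had 0.895, 0.592, 1.55 and 0.947 CPM in control libraries before and 5.45, 32.7, 56.8 and 46.3 CPM after. The HIRA KO libraries had 2.75, 2.67, 1.02 and 1.13 CPM before and 8.61, 2.97, 62.0 and 14.4 CPM after. The times did not overlap, and Kif20a rose 35.5-fold in control (adjusted p = 0.00721, edgeR) and 11.5-fold in HIRA KO livers (adjusted p = 0.0295). The exons of Kif20a overlap those of Cdc23 on the other strand over 1271 bases, and the use of strand in the counting is not given in the sources used here. Exons of 9 members overlap a protein-coding gene on the other strand in this way (Ccna2, Ncapg, Cdca8, Kif4, Nusap1, Cdc20, Ube2c, Prc1 and Kif20a), and Ccnb1, Ccnb2, Kif4 and Kif22 have a named pseudogene that could share reads.

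**Figure D1:**
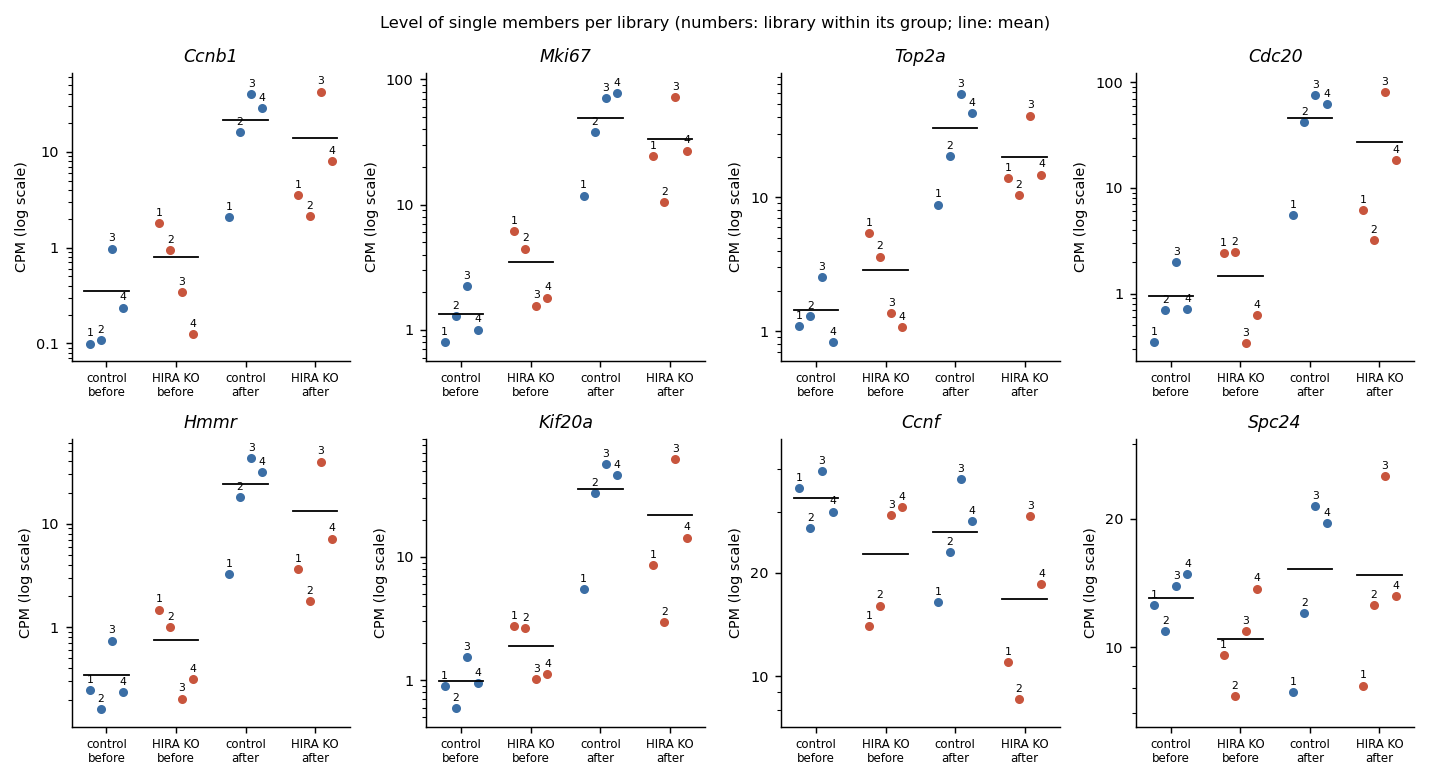
Level of 8 members in each library, in CPM on a log axis whose range differs between panels, for control (blue) and HIRA KO (red) livers before and after regeneration; numbers name the library within its group and lines are means of 4. In 6 panels the libraries after regeneration lie above those before it, with control library 1 and HIRA KO libraries 1 and 2 low among them, while Ccnf and Spc24 overlap between the times.

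The share of all genes that changed gives the background. In control livers 6.04% of 23018 genes rose and 4.17% fell at an adjusted p under 0.05, and the groups did not overlap for 10.0% in the higher and 8.98% in the lower direction, against 45 and 0 of the 47 members in each pair. In HIRA KO livers 6.48% rose, 5.53% fell, and 8.61% and 7.45% did not overlap, against 43 members that rose and 45 that did not overlap upwards. The median log2 fold change over all genes tested was 0.00 in control and 0.02 in HIRA KO livers. The members were listed with these results known, and their share is a description. The count of 43 in HIRA KO livers rested on single libraries: it was 21, 11 and 10 without HIRA KO library 2, 3 or 4 before regeneration, 14 without HIRA KO library 3 after it, and 24 when only the HIRA KO libraries were fitted. DESeq2 called 45. Within libraries 1 and 2 of HIRA KO none of the 47 members passed the test at a median log2 fold change of 1.29, 12 had an unadjusted p under 0.05 and 2013 of all 23018 genes were called, whereas within libraries 3 and 4 it was 45 at a median of 4.51 (edgeR, 1 fit with each pair of each group as a mean of 2). In control livers 22 rose within libraries 1 and 2, at a median of 3.66, and 45 within libraries 3 and 4, at a median of 4.96. Of all 23018 genes 1337 and 3151 were called within these pairs in control livers, and 2980 within libraries 3 and 4 of HIRA KO. With the pair as a term in the fit the counts were 45 in control and 40 in HIRA KO livers, against 3253 and 3814 of all genes.

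**Figure D2:**
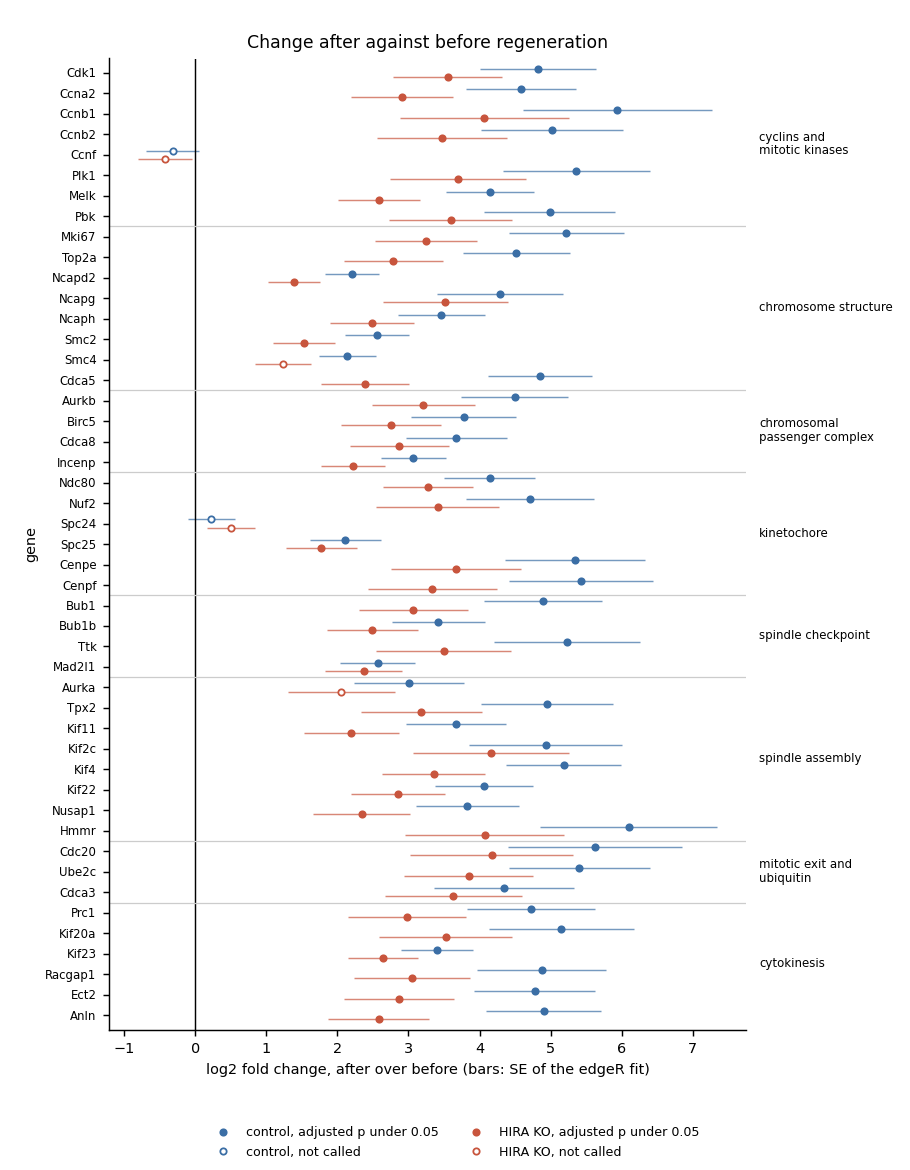
Log2 fold change after over before regeneration for each of the 47 members, grouped by role, in control (blue) and HIRA KO (red) livers, with the SE of the edgeR fit and filled points for adjusted p under 0.05. Ccnf and Spc24 lie near 0 in both genotypes, all other members lie to the right of 0, and Smc4 and Aurka are open points in HIRA KO livers.

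Levels can be compared between members only per length. In control livers after regeneration the highest mean deposited FPKM were those of Cdk1 at 34.8, Cdca3 at 27.3, Ube2c at 26.6 and Cdc20 at 23.9, and the lowest that of Melk at 0.959. As CPM per kilobase of annotated exon the order began with Cdc20 at 24.7, Ccnb2 at 13.7, Cdca3 at 12.4 and Ube2c at 10.4 and ended with Ndc80 at 0.575. Before regeneration Spc24 and Ccnf led on both scales, at 9.78 and 5.91 FPKM and at 5.07 and 4.23 CPM per kb. These 2 members, which did not rise, made up 44.2% to 52.1% of the summed CPM of all members in the control libraries before regeneration and 4.21% to 11.8% after it. In the HIRA KO libraries their share was 18.0% to 46.4% before and 4.19% to 10.4% after.

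The summed level of the 47 members was 91.7, 85.4, 120.6 and 90.7 CPM in the control libraries before and 206, 637, 1360 and 1138 CPM after regeneration. In the HIRA KO libraries it was 131, 115, 88.0 and 96.4 CPM before and 286, 203, 1300 and 379 CPM after. Each library after regeneration lay above each before it, while libraries within a group after regeneration differed by more than the lowest of them did from the tissue before. Without Ccnf and Spc24 the control libraries had 44.0 to 67.3 CPM before and 182, 602, 1301 and 1091 CPM after, and the HIRA KO libraries 107, 91.3, 47.7 and 51.7 CPM before and 267, 182, 1245 and 347 CPM after. The ratio of means, after over before, was 8.60 in control and 5.04 in HIRA KO livers for all members, and 15.5 and 6.85 without Ccnf and Spc24. Without HIRA KO library 3 after regeneration the ratio of all members in HIRA KO livers was 2.69. Within libraries 1 and 2 the ratio of all members was 4.76 in control and 1.99 in HIRA KO livers, and within libraries 3 and 4 it was 11.8 and 9.10. After regeneration the sums of libraries 1 and 2 lay below those of libraries 3 and 4 in both genotypes.

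**Figure D3:**
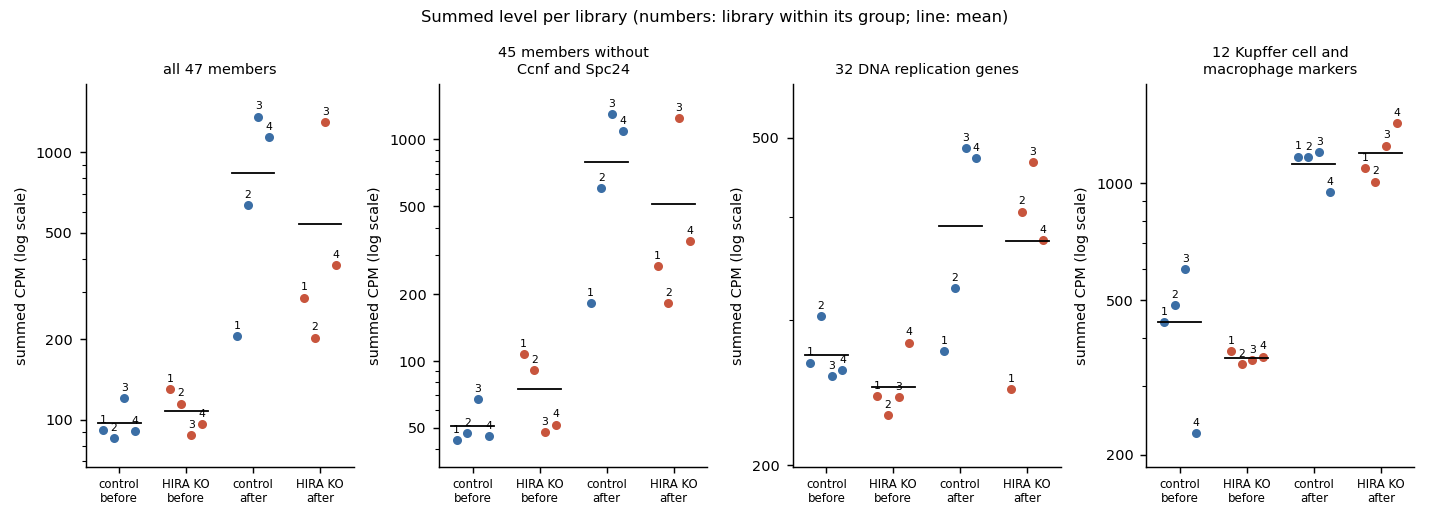
Summed CPM per library on log axes with different ranges for all 47 members, for the 45 without Ccnf and Spc24, for 32 DNA replication genes and for 12 Kupffer cell and macrophage markers; blue is control, red is HIRA KO, numbers name libraries and lines are means of 4. Control library 1 and HIRA KO libraries 1, 2 and 4 after regeneration are low in the member panels, whereas the macrophage markers are high in all 8 libraries after regeneration.

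The members kept a common order of libraries. Of the control libraries after regeneration, library 1 was the lowest for 47 of 47 members, library 3 the highest for 40 and library 4 for 7. Of the HIRA KO libraries after regeneration, library 3 was the highest for 47 of 47 and library 2 the lowest for 37. The ratio of the highest to the lowest library within a group had a median of 7.37 in control livers after regeneration, from 2.28 for Ccnf to 19.3 for Ccnb1, and of 6.83 in HIRA KO livers, from 2.65 for Ncapd2 to 25.2 for Cdc20. Before regeneration the median was 2.42 in control and 3.38 in HIRA KO livers, over the 45 members counted in all libraries of the group. By role the spread after regeneration was widest for the genes of mitotic exit, with a median ratio of 11.2 in control and 17.2 in HIRA KO livers, and narrowest for the passenger complex in control, at 6.25, and for chromosome structure in HIRA KO livers, at 3.66.

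**Figure D4:**
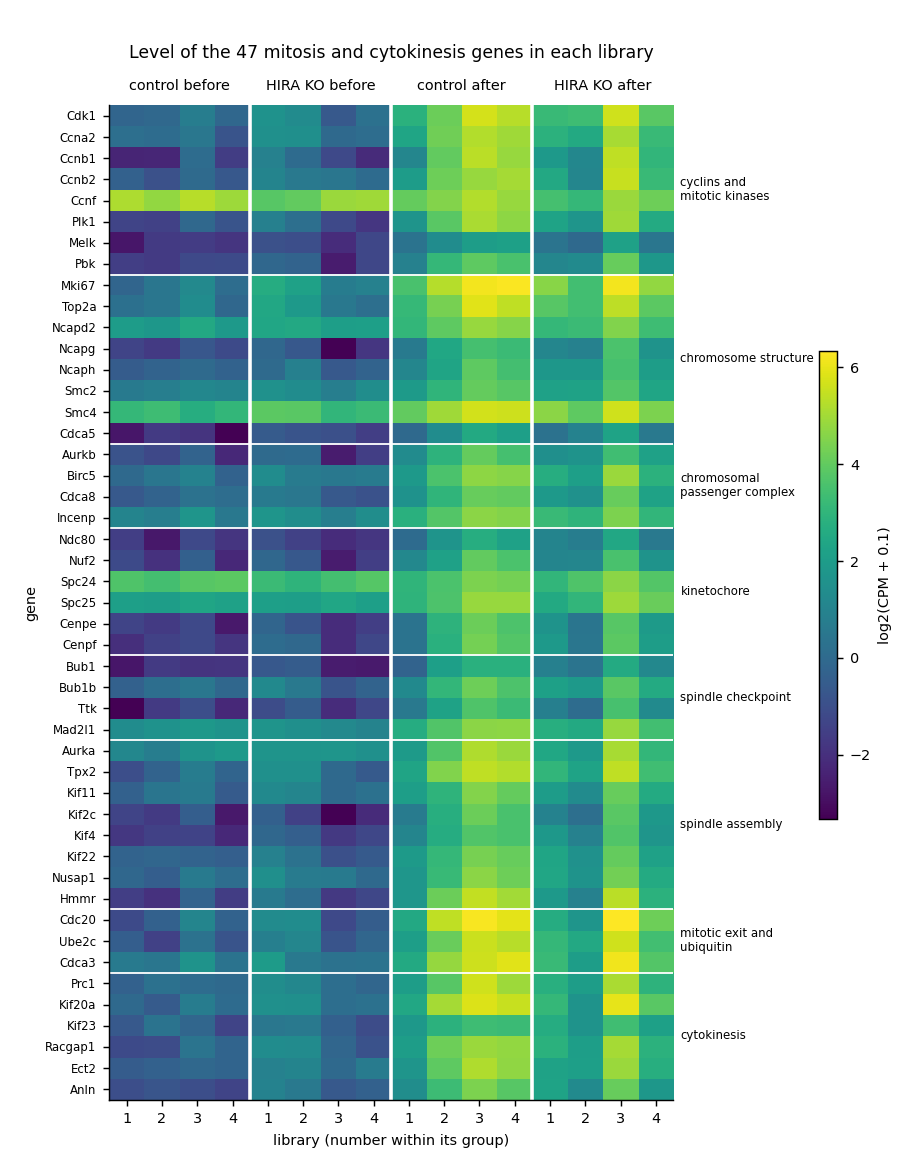
Level of each of the 47 members (rows, by role) in each of the 16 libraries (columns, by group), as log2 of CPM plus 0.1. Libraries 2 to 4 of control and library 3 of HIRA KO after regeneration are bright throughout, control library 1 is the dimmest of its group for each gene, and Ccnf and Spc24 are bright in all groups.

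Before regeneration 43 members had a higher and 4 a lower fitted level in HIRA KO than in control livers, with a median log2 difference of 0.75, but none passed the test, 1 had an unadjusted p under 0.05 and the smallest adjusted p was 0.349 (Cdca5, edgeR). DESeq2 called none either. Over all genes 0.0348% were called higher and 0.00434% lower, and for 3.54% and 4.53% the groups did not overlap in the higher and lower direction, against 4 and 0 of the 47 members. Over all genes tested 11741 had a higher and 11230 a lower fitted level, with a median of 0.01. Cdca5 (sororin, which protects sister chromatid cohesion) differed by 1.91 ± 0.834 on the log2 scale, the largest difference of a member.

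The difference before regeneration lay in HIRA KO libraries 1 and 2. Both lay above all 4 control libraries before regeneration for 32 of 47 members, whereas libraries 3 and 4 did so for 4 of 47. How many of all genes did so was not counted, so the tally cannot be read as particular to the members. Before regeneration 1969 of all 23018 genes were called between genotypes within libraries 1 and 2, and 11 within libraries 3 and 4. Without libraries 1 and 2 of HIRA KO at both times, a choice made after seeing the data, the median difference was -0.09. The summed level of 12 stellate cell and matrix markers was 738 and 526 CPM in libraries 1 and 2, against 244 to 288 CPM in the other 6 before regeneration. That of 12 cholangiocyte markers was 427 and 280 CPM against 115 to 201 CPM. Of these Cdh1 had 3912 and 2371 counts in libraries 1 and 2 against 632 to 1741. Krt19 had 996 and 66 counts against 22 to 40. Neutrophil markers had 27.9 and 14.5 CPM there against 3.63 to 10.7 CPM, but 16.0 of the 27.9 CPM in library 1 was Ltf alone, and without Ltf the sums were 11.9 and 14.3 CPM against 3.63 to 10.7 CPM. T and NK cell markers stood at 14.0 and 12.5 CPM against 4.50 to 9.84 CPM. The part of these cells in the members' levels was not tested. Ccnf went the other way, with 14.0 and 16.1 CPM in these libraries against 27.1 to 39.4 CPM in the other 6 before regeneration. Spc24 was lower there too, at 9.58 and 7.67 CPM against 10.9 to 14.9 CPM. Set against control libraries 1 and 2 alone, Ccnf was lower in HIRA KO libraries 1 and 2 at both times. The log2 difference was -1.06 before (adjusted p = 0.0212, edgeR) and -1.01 after regeneration (adjusted p = 0.0209, edgeR). Ccnf was the only member called between genotypes within either pair. The same comparisons called 1969 and 2851 of all 23018 genes, a larger share than 1 of 47 members. The median difference of the members before regeneration was 1.42 within libraries 1 and 2 and -0.22 within libraries 3 and 4, where the summed level was 1.39 and 0.873 times that of control.

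After regeneration all 47 members had a lower fitted level in HIRA KO than in control livers, with a median log2 difference of -0.64, equal to 0.643-fold, and none passed the test. None had an unadjusted p under 0.05, the smallest adjusted p was 0.436 (Ccnf, edgeR), and DESeq2 called none. Differences ran from -0.90 for Prc1 to -0.05 for Spc24. In all, 0.200% of genes were called higher and 0.291% lower, for 3.65% and 4.45% the groups did not overlap, and 10989 of 23018 genes had a lower fitted level. No member had groups that did not overlap. Control library 1 was as low as the low HIRA KO libraries and HIRA KO library 3 as high as the high control libraries. With both left out, a choice made after seeing the data, the control libraries lay above the HIRA KO libraries for 45 of 47 members. The share of all genes that did so was not counted. Both libraries were picked by the members' own levels, so this count was largely set by the choice. No difference between the genotypes is read from it. The size of the difference depended on few libraries. With 1 library left out the median ran from -1.58, without HIRA KO library 3, to -0.31. Without HIRA KO libraries 1 and 2, but with all control libraries kept, it was -0.02, with 29 of 47 members lower. Within libraries 1 and 2 the median was -0.76 and within libraries 3 and 4 it was -0.64.

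**Figure D5:**
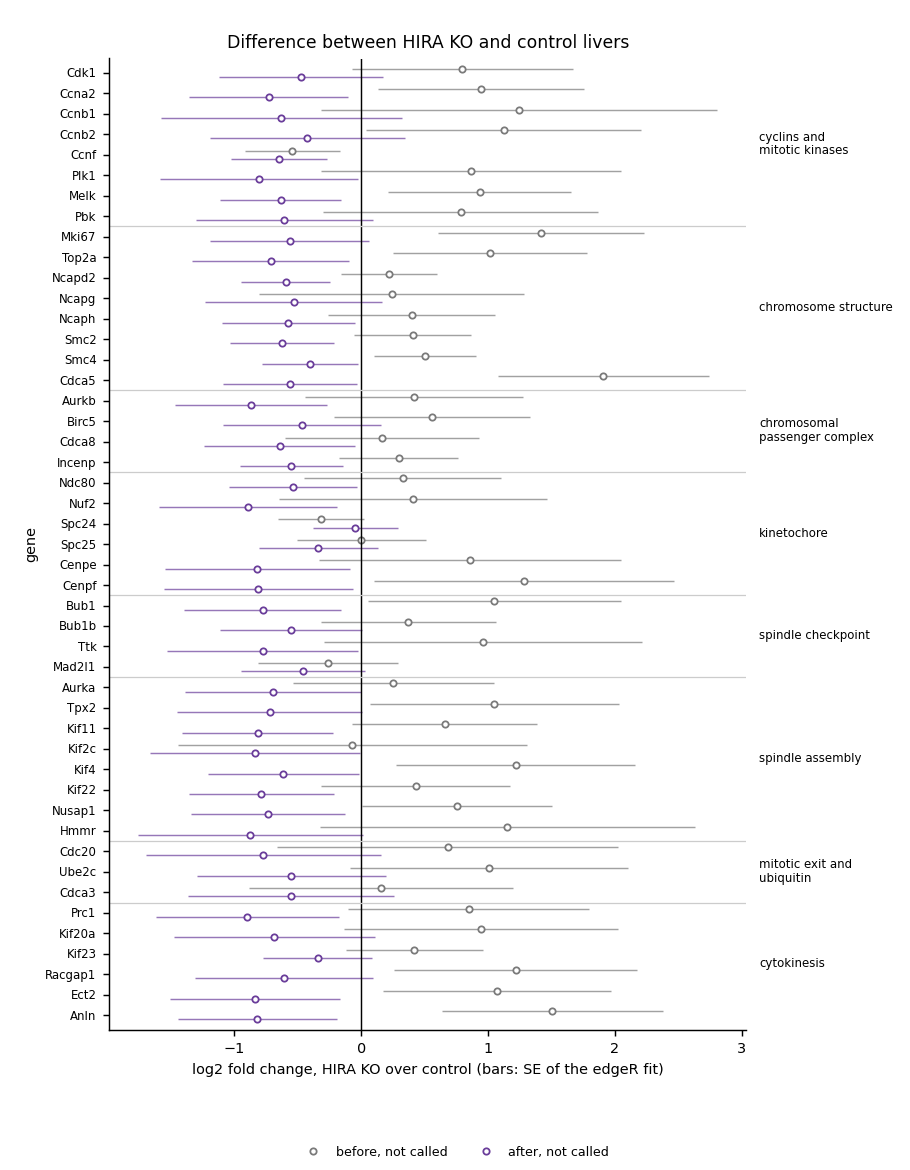
Log2 fold change of HIRA KO over control for each member before (grey) and after (purple) regeneration, with the SE of the edgeR fit; open points did not pass the test, which holds for all of them. Most grey points lie right of 0 and all purple points left of 0, with many bars that cross 0.

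The difference between the 2 changes was tested as an interaction. For 46 of 47 members the change with regeneration was smaller in HIRA KO than in control livers, with a median difference of -1.45 on the log2 scale, and Spc24 was the exception. None passed the test, 2 had an unadjusted p under 0.05 and the smallest adjusted p was 0.641 (Cdca5, -2.47 ± 0.989, edgeR). Over all genes tested none was called either, 0% in each direction, while 1568 had an unadjusted p under 0.05, and DESeq2 called no member. Without HIRA KO libraries 1 and 2 the median was 0.13, and it was -2.19 within libraries 1 and 2 of both genotypes and -0.32 within libraries 3 and 4.

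Genes around the members were taken from lists of pathway genes. The list of B-Myb-MuvB and E2F regulators, which also holds factors of S phase, changed less as a group. In control livers 10 of 20 were higher and 2 lower, and in HIRA KO livers 3 were higher and 1 lower. Foxm1, the transcription factor of the G2 and M phase, had 0.298, 0.753, 0.630 and 0.414 CPM in control libraries before and 2.38, 10.5, 23.1 and 20.3 CPM after, and 2.01, 1.93, 0.340 and 0.501 CPM before and 4.94, 4.13, 16.5 and 6.79 CPM after in HIRA KO libraries. It followed the library order of the members, and rose 26.7-fold in control (adjusted p = 0.00286, edgeR) and 6.63-fold in HIRA KO livers (adjusted p = 0.0273). Mybl2, the B-Myb subunit of the activator complex, had a log2 fold change of 1.11 ± 0.419 (adjusted p = 0.107, edgeR) in control and 0.78 ± 0.378 (adjusted p = 0.190, edgeR) in HIRA KO livers and did not pass the test. It was barely counted, with 3 to 17 counts per library before and 8 to 31 after regeneration, which limits what the test can show. E2f1, an activator of S phase genes, rose 1.90-fold in control livers (adjusted p = 0.0160), and E2f7, a repressor, 2.53-fold (adjusted p = 0.0108), while E2f8 was 1.84-fold higher without passing the test (adjusted p = 0.0659). In HIRA KO livers E2f1, E2f7 and E2f8 had folds of 1.57, 1.82 and 1.69 with adjusted p of 0.0776, 0.0725 and 0.109. The smallest change of this list that passed was that of E2f4, a repressor partner in resting cells, 1.28-fold in control livers (adjusted p = 0.0494).

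Other genes of mitosis outside the set rose in 64 of 80 cases in control and 49 of 80 in HIRA KO livers, and none fell. Parpbp had the largest change with a mean of at least 1 CPM, 52.7-fold in control (adjusted p = 0.00364, edgeR), and Cdc25a, a phosphatase that activates cyclin-dependent kinases, the smallest, 1.49-fold (adjusted p = 0.0360). Of 12 genes of cohesin, the ring that holds sister chromatids, and of its loaders, releasers and acetyltransferases, 1 rose in control livers and in HIRA KO livers 1 rose and 1 fell. The gene that rose in both was Esco2, the acetyltransferase of S phase and no subunit of the ring, with 17.9-fold in control (adjusted p = 0.0116). Of the subunits of the anaphase promoting complex 2 of 14 rose in control and 3 in HIRA KO livers, and Cdc27 and Cdc16 rose 1.44-fold and 1.33-fold in control (adjusted p = 0.0233 and 0.0248), against 49.5-fold for its activator Cdc20.

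DNA replication genes rose in 22 of 32 cases in each genotype, with 1 lower in control livers. Uhrf1, which guides maintenance of DNA methylation, rose 10.7-fold in control and 7.20-fold in HIRA KO livers (adjusted p = 0.00182 and 0.00361, edgeR), and Pcna, the sliding clamp, 1.43-fold and 1.45-fold (adjusted p = 0.0266 and 0.0218). The summed level of the list was 275, 328, 486 and 472 CPM in control and 248, 407, 467 and 375 CPM in HIRA KO libraries after regeneration, against 257 to 303 CPM and 230 to 282 CPM before. Control library 1 and HIRA KO library 1 lay within the range of their group before regeneration, but Mcm10 alone, which was lower after it, decided this. Mcm10, a replication initiation factor, had 74.3, 113, 64.9 and 96.2 CPM in control libraries before and 28.0, 32.3, 14.9 and 27.6 CPM after, and fell in control livers (log2 fold change -1.76, adjusted p = 0.00312, edgeR). Without Mcm10 the sum was 247 CPM in control library 1 against 165 to 192 CPM before, and 219 CPM in HIRA KO library 1 against 159 to 183 CPM before, so that both lay above their group before regeneration as the members did. HIRA KO library 2 had the lowest member sum of its group, 203 CPM, and the second highest replication sum, 407 CPM, and Uhrf1 was highest there, at 15.4 CPM against 5.66 to 10.7 CPM in the other 3.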

How the data were processed

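Per the labels and the methods of the study, the authors aligned reads with STAR to mm10 and counted them per gene. The deposited counts are whole-number read counts per gene, used as deposited. The deposited FPKM values, scaled by the authors to length and depth, were used only for levels between genes, and their tool is not given for this table in the sources used here (the labels list HTSeq and Cufflinks). Genes with at least 10 counts over the 16 libraries (23018) were scaled by TMM and fitted with 4 group means in edgeR 4.0.16 (R 4.3.3, quasi-likelihood test, robust). Adjustment followed Benjamini and Hochberg over the 23018 genes, and calls were made at an adjusted p under 0.05. The fit was tested on simulated data for control livers after against before regeneration (22491 genes passing the filter), where it called 64 of 100 genes changed 2-fold, 89 of 100 changed 4-fold and 5 unchanged genes. DESeq2 1.42.0 served as an alternative. Within groups, 24 pairs of libraries differed by a chi-square of 12.4 to 135 per degree of freedom. Sums are of TMM-scaled CPM. Exon lengths and overlaps came from GENCODE M21. Values in each library are given for Mki67, Top2a, the member of highest mean CPM in each role, members called between genotypes and the 2 largest and 2 smallest changes in control livers. Of pathway lists, 5 fixed regulators and the largest and smallest called change with a mean of at least 1 CPM are named. Cps1, Mcm10, Ltf, Cdh1, Krt19, Cdk1, Ncapg, Smc4, Ncapd2, Spc25, Aurka, Cdca5, Prc1 and the members named for their level per length were named after their values were seen. The members and lists were chosen with earlier results of these data known.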

Additional observations from a re-analysis of the deposited data

Results flagged for a closer look

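In 8 of 48 groups of 4 libraries examined (the members' sum and 11 named members), 1 library stood far from the other 3 by Dixon's criterion for 4 samples, where chance gives about 5% of groups. HIRA KO library 3 after regeneration stood high for the summed level of all members, at 1300 CPM, and for Top2a at 40.9, Incenp at 21.7, Tpx2 at 41.9, Ccnb1 at 42.3 and Hmmr at 39.9 CPM. Control library 3 before regeneration stood high for Ccnb1 at 0.973 and Hmmr at 0.744 CPM. The groups share libraries and the members move together, so these are not separate observations.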

How the results depend on the processing

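In control livers the count of members that rose was 45 under each other scaling, filter, robust setting and tool and with only the groups compared, and 43 to 45 when 1 library was left out. In HIRA KO livers it was 24 in place of 43 with only the groups compared, 30 without a filter on low counts, 32 without HIRA KO libraries 1 and 2, and 10 to 44 with 1 library left out. It was 21, 11 and 10 without libraries 2, 3 and 4 before regeneration and 14 without library 3 after it, and the cause was not tested. Of the named members' changes in both genotypes under the alternatives, 355 kept their side of the threshold, 51 lost it, 46 of these in HIRA KO livers, and 1 changed sign, Spc24 in control livers at -0.24 within libraries 1 and 2. Within libraries 1 and 2, a choice made after seeing the data, the counts were 22 in control and 0 in HIRA KO livers. Between genotypes 1 member was called there at each time (Ccnf). Of all 23018 genes these comparisons called 1337, 2013, 1969 and 2851, in that order. No other alternative called a member between genotypes, and none called one in the interaction. With 1 library left out the median difference of HIRA KO from control ran from 0.37 to 0.99 before and from -1.58 to -0.31 after regeneration, and that of the interaction from -2.31 to -1.0. The ratio of summed levels, after over before, ran from 6.80 to 10.8 in control and from 2.69 to 6.09 in HIRA KO livers, and that of HIRA KO over control from 1.03 to 1.20 before and from 0.346 to 0.820 after. Without Ccnf and Spc24, a choice made after seeing the data, the ratio after over before was 15.5 in place of 8.60 for control livers. That of HIRA KO over control before regeneration was 1.46 in place of 1.11. With all members kept, this second ratio was 1.39 within libraries 1 and 2 and turned to 0.873 within libraries 3 and 4. No paired analysis was possible because the columns name no mouse, and a fit by deletion approach was not run for the same reason. Members with few counts before regeneration, down to 32 over the 8 libraries, limit the precision of their changes.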
